A study of Mus musculus with 6 samples.

Results

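Fibro-adipogenic progenitors are the mesenchymal cells of the muscle interstitium, which lie between the fibres, make much of the connective tissue matrix and can become fibroblasts or adipocytes. They carry the receptor Pdgfra and the surface protein Ly6a (Sca-1) and are distinct from satellite cells, the Pax7-expressing stem cells under the basal lamina. A subset rich in Pi16, Dpp4 and Cd55 lies along vessels and fascia and is widely regarded as an uncommitted fibroblast reservoir. The 10 genes described here, Pdgfra, Ly6a, Dpt, Gsn, Pi16, Dpp4, Cd55, Clec3b, Mfap4 and Mfap5, are in common use as markers of these progenitors. They were chosen by name, and all 10 were found among the 39059 genes of the count files by their Ensembl identifiers.

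The RNA came from satellite cells that were sorted by flow cytometry from hind limb muscle of C57BL/6J mice at postnatal day 19. One group of 3 libraries carried the genotype Lmna Δ8-11 -/- (named for exons 8 to 11 of Lmna, the gene for lamins A and C), and is called HOM. The other group of 3 libraries was Lmna Δ8-11 +/+, or wild type, called WT. The labels name no treatment, Cre driver or other allele, and they state 3 mice per condition without assigning a mouse to a library, so a p-value here reflects the spread among these 6 libraries. The comparison asks how the marker transcripts in the sorted fraction differ with the Lmna genotype.

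Gene totals lay between 6613636 and 9552751 reads per library. Lmna itself stood at 419 ± 39.9 CPM (read counts per TMM-scaled library size, edgeR's CPM scale, mean ± SD, n = 3) in HOM and 943 ± 107 CPM in WT libraries. A count over the whole gene includes exons outside the deleted stretch, so it checks the genotype only in part. Pax7 was at 31.6 ± 18 and 75.8 ± 10.3 CPM. Transcripts of some other cell types were abundant next to the 10 progenitor markers. Those 10 summed to 1820 to 2111 CPM in HOM and 1700 to 1866 CPM in WT libraries. Sums of endothelial, tenocyte, adipocyte, erythroid, leukocyte and muscle fibre markers, given below, were lower. Gsn, which is present in many other cell types, gave most of the progenitor sum. Without Gsn, the remaining markers summed to 219 to 276 CPM in HOM and 350 to 406 CPM in WT libraries. Endothelial sums, at 473 to 808 and 535 to 820 CPM, exceeded that in both genotypes. Adipocyte sums did so in HOM and erythroid sums in WT libraries, while tenocyte, leukocyte and muscle fibre sums stayed lower. Summed over 10 pericyte and smooth muscle markers, HOM libraries held 10751 to 11497 CPM and WT libraries 9851 to 13857 CPM, and over 10 Schwann cell markers 4654 to 6571 and 6144 to 7727 CPM. These sums are not scaled for gene length, and Acta2, of the pericyte list, alone stood at 4068 ± 154 CPM in HOM and 4813 ± 1267 CPM in WT. The 12 satellite cell markers summed to 1204 to 1724 against 2144 to 2209 CPM. HOM replicate 2 often lay nearest to WT: of the 1617 genes called lower, 70.4% had their highest HOM value there. The labels give no sex, and Y-linked genes had 1, 4498 and 3 reads in HOM replicates 1, 2 and 3 and 0, 3074 and 4831 in WT replicates 1, 2 and 3. Libraries with many Y-linked reads were thus 1 of 3 HOM and 2 of 3 WT, and HOM replicate 2 was the HOM one. Each genotype therefore held libraries of both kinds, in unequal number, and what sex contributes was examined only with a term for Y-linked reads. HOM replicate 2 and WT replicate 2 were also the 2 libraries high in Gm42418, at 1.30 and 1.39% of gene reads.

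The 10 markers did not move as one group. Of the 10, 7 fell in HOM libraries (Dpt, Mfap5, Mfap4, Clec3b, Cd55, Dpp4 and Pi16), 1 rose (Pdgfra), and Gsn and Ly6a did not pass the test (edgeR quasi-likelihood test, adjusted p under 0.05 over 14099 genes). Over all genes tested, 11.5% were called lower, 9.67% higher and 21.1% in either direction. Every HOM library lay below every WT library for the same 7 genes, and above for Pdgfra and Gsn, against 20.6 and 20.2% of all genes tested. The median log2 difference (HOM minus WT, the direction of every such value) of the markers was -1.16, and that of all genes tested was -0.0038. All 10 passed the filter on low counts, but Mfap4 and Pi16 did so through their WT libraries alone, which fixes their direction in advance. Clec3b had 1 HOM and 3 WT libraries over the filter cut of 1.31 CPM, so it too needed its WT libraries to pass. Clec3b, Mfap4 and Pi16 are counted among the 7 and enter the median of -1.16. The calls of Clec3b and Pi16 were lost in each fit that left out 1 library, so that 5 of the 10 were called lower in each of those fits, and 5 were with the DESeq2 Wald test. In bulk RNA, fewer progenitors in the sorted fraction and less of a transcript per cell cannot be told apart.

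**Figure D1:**
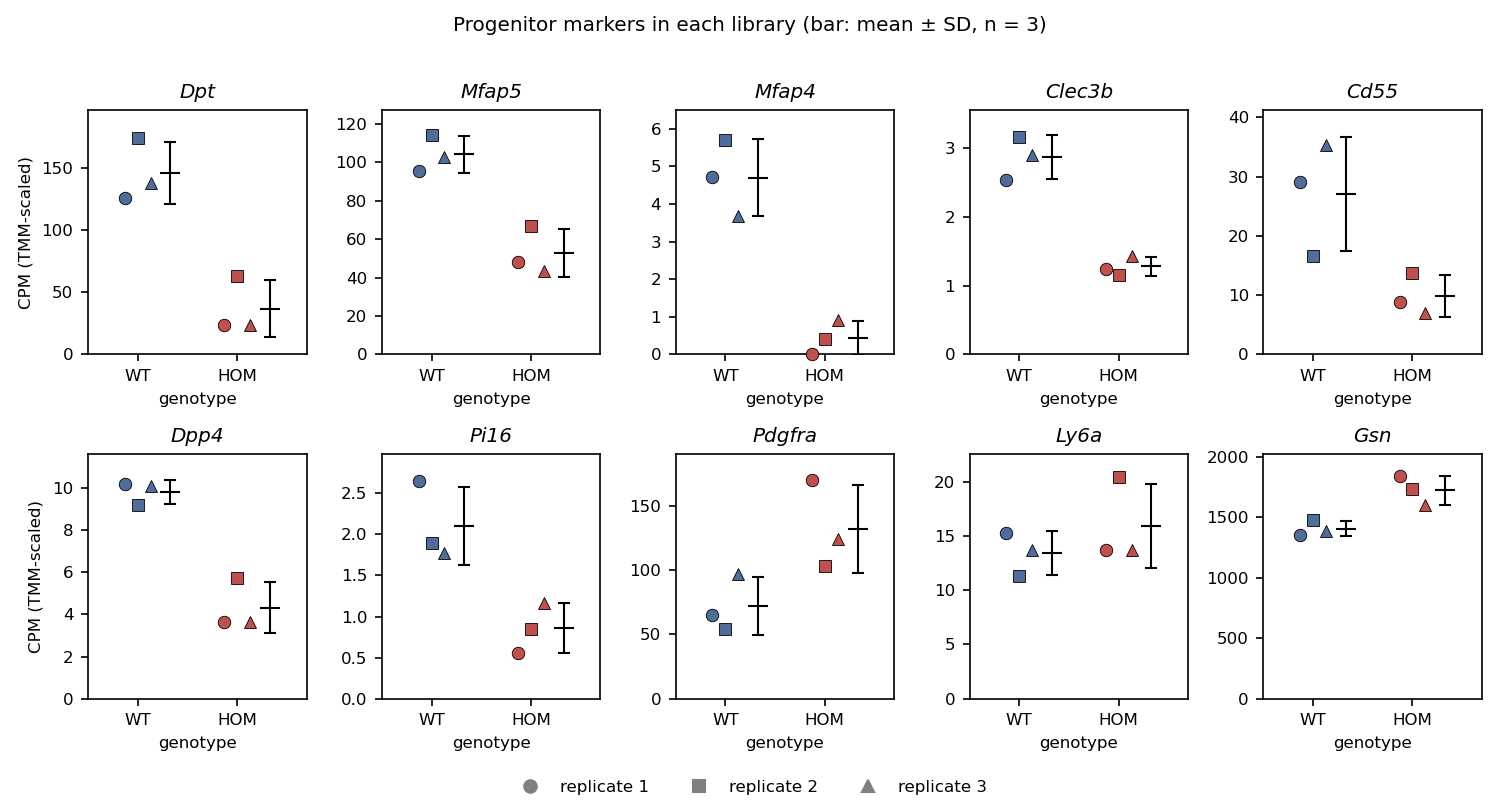
Level of each marker (vertical axis, CPM on TMM-scaled totals, starting at 0) in WT (blue) and HOM (red) libraries; symbols mark replicates and black bars the mean ± SD (n = 3). The groups are separate for Dpt, Mfap5, Mfap4, Clec3b, Cd55, Dpp4 and Pi16, with HOM lower, and for Pdgfra and Gsn, with HOM higher; they overlap for Ly6a.

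Of the matrix genes, Dpt (ENSMUSG00000026574, GRCm38 chr1:164796644-164824266, plus strand) encodes dermatopontin, a small protein of the interstitial matrix that binds decorin and collagen. Dpt reads numbered 171, 598 and 182 in HOM replicates 1, 2 and 3 and 1088, 1098 and 1094 in WT replicates 1, 2 and 3, or 23.8, 63.2 and 23.8 CPM against 126, 174 and 138 CPM. HOM replicate 2 stood well above the other HOM libraries and still below every WT library. Dpt fell by 1.97 on the log2 scale (SE 0.33, adjusted p = 0.00393), which is 3.91-fold. Without HOM replicate 2, Dpt fell by 2.62 on that scale.

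Mfap5 (ENSMUSG00000030116, chr6:122505845-122529290, plus strand), or MAGP-2, is a microfibril-associated glycoprotein that binds fibrillin. Its level was 48.0, 67.1 and 43.7 CPM in the HOM and 95.3, 114 and 103 CPM in the WT replicates, from 335 to 826 reads per library. The HOM values were again highest in replicate 2, and the genotypes were separate. Mfap5 fell by 0.97 on the log2 scale (SE 0.16, adjusted p = 0.00362), the smallest of the 7 decreases.

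Mfap4 (ENSMUSG00000042436, chr11:61485431-61488900, plus strand) encodes an extracellular fibrinogen-related glycoprotein found with elastic fibres. It had 0, 4 and 7 reads in HOM replicates 1, 2 and 3 and 41, 36 and 29 reads in the WT replicates. The library without a read allows a level of up to 0.418 CPM (3 reads, counting error only), and the WT libraries lay at 3.67 to 5.71 CPM. The decrease, 3.33 on the log2 scale (SE 0.55, adjusted p = 0.00358), was the largest of the 10 and rests on 11 reads in the HOM group. Without HOM replicate 3, Mfap4 fell by 4.21 on that scale. Mfap4 overlaps Mapk7 on the opposite strand, whose own reads, 88 to 161 per library, did not pass the test (log2 difference 0.08, adjusted p = 0.815).

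Clec3b (ENSMUSG00000025784, chr9:123150946-123157432, plus strand) encodes tetranectin, a secreted lectin-like protein that binds plasminogen. It was thinly covered, with 9, 11 and 11 reads in the HOM and 22, 20 and 23 in the WT replicates (1.25, 1.16 and 1.44 against 2.54, 3.17 and 2.91 CPM). The groups did not overlap, and the log2 difference was -1.15 (SE 0.30, adjusted p = 0.0247). Its adjusted p lay between 0.0528 and 0.0747 when any 1 library was left out, and was 0.113 with the DESeq2 Wald test.

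Among the surface and secreted markers of the Pi16-positive subset, Cd55 (ENSMUSG00000026399, chr1:130439027-130462744, minus strand) encodes decay-accelerating factor, which limits complement activation on the cell surface. Its level was 8.78, 13.8 and 6.92 CPM in the HOM and 29.1, 16.6 and 35.4 CPM in the WT replicates. The closest values were those of the second replicate of each genotype. Cd55 fell by 1.45 on the log2 scale (SE 0.30, adjusted p = 0.00933). Without HOM replicate 2 and WT replicate 2 together, it fell by 2.04 on that scale.

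Dpp4 (ENSMUSG00000035000, chr2:62330073-62412231, minus strand), or CD26, is a membrane peptidase that trims chemokines and incretin hormones. It had 26, 54 and 28 reads in the HOM and 88, 58 and 80 in the WT replicates, or 3.63, 5.71 and 3.65 CPM against 10.2, 9.19 and 10.1 CPM. The WT levels were close together, and HOM replicate 2 lay between them and the other HOM libraries. Dpp4 fell by 1.17 on the log2 scale (SE 0.23, adjusted p = 0.0077).

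Pi16 (ENSMUSG00000024011, chr17:29317680-29330593, plus strand), a secreted or membrane-anchored peptidase inhibitor, had the fewest reads of the 10. It had 4, 8 and 9 reads in the HOM and 23, 12 and 14 in the WT replicates (0.558, 0.846 and 1.17 against 2.65, 1.90 and 1.77 CPM). The groups were separate, but on 21 against 49 reads in all. Its log2 difference was -1.28 (SE 0.39, adjusted p = 0.0416). The adjusted p lay between 0.0625 and 0.174 when any 1 library was left out, and was 0.152 with the DESeq2 Wald test.

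Pdgfra (ENSMUSG00000029231, chr5:75152292-75198215, plus strand), the receptor that defines these progenitors in muscle, went the other way. Its reads numbered 1222, 976 and 950 in the HOM and 561, 342 and 767 in the WT replicates, or 170, 103 and 124 CPM against 64.7, 54.2 and 97.1 CPM. Each HOM library lay above each WT library, though HOM replicate 2 and WT replicate 3 were close. Pdgfra rose by 0.88 on the log2 scale (SE 0.23, adjusted p = 0.0234). The call was lost without HOM replicate 1 (log2 difference 0.66, adjusted p = 0.0826), WT replicate 1 (0.80, adjusted p = 0.0907) or WT replicate 2 (0.71, adjusted p = 0.0827), and when a term for Y-linked reads entered the model (0.81, adjusted p = 0.0576). Among libraries with few Y-linked reads Pdgfra was at 170 and 124 CPM in HOM and 64.7 CPM in WT, and among those with many at 103 CPM in HOM and 54.2 and 97.1 CPM in WT.

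Ly6a (ENSMUSG00000075602, chr15:74994877-74998031, minus strand), the glycolipid-anchored protein known as Sca-1, is used to sort these progenitors and is also made by endothelial cells. Its level was 13.7, 20.4 and 13.7 CPM in the HOM and 15.3, 11.3 and 13.7 CPM in the WT replicates. The groups overlapped, and no difference was detected (log2 difference 0.25, SE 0.20, adjusted p = 0.415). Without HOM replicate 2 the value was 0.02. Of the 50-base words in Ly6a transcripts, 19.0% also occur in transcripts of other genes, mainly Ly6c1, so its count depends on how such reads were assigned. Ly6c1 itself was at 44.2, 84.0 and 47.5 against 44.1, 29.2 and 36.8 CPM (log2 difference 0.67, adjusted p = 0.0724).

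Gsn (ENSMUSG00000026879, chr2:35256380-35307892, plus strand) encodes gelsolin, which severs and caps actin filaments inside cells and has a secreted plasma form. It is abundant in fibroblasts and present in many other cell types. Its level was 1841, 1728 and 1601 CPM in the HOM and 1350, 1476 and 1389 CPM in the WT replicates. All HOM libraries were above all WT libraries, but the difference did not pass the test (log2 difference 0.29, SE 0.14, adjusted p = 0.151).

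**Figure D2:**
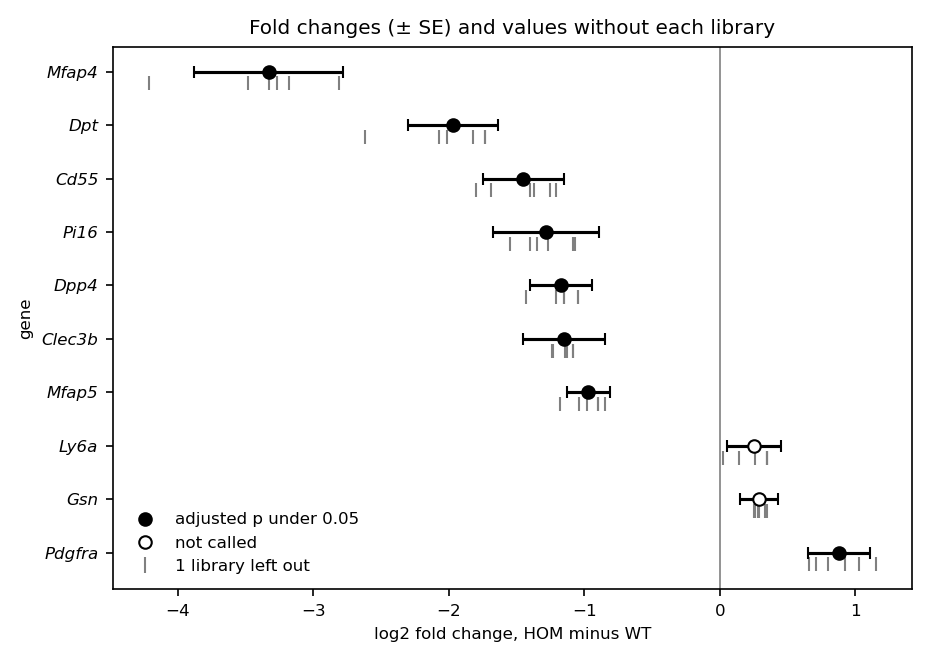
Log2 fold change of each marker (horizontal axis, HOM minus WT), with bars of 1 SE; filled circles passed an adjusted p of 0.05, open circles did not, and grey ticks are the values with each library left out in turn. The 7 lower markers range from -3.33 (Mfap4) to -0.97 (Mfap5) and Pdgfra stands at 0.88; no tick crosses 0.

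Per kilobase of annotated exon, the markers covered more than 3 orders of magnitude in level. In WT libraries the order was Gsn (445 ± 20.5 CPM per kb, mean ± SD, n = 3), Dpt (84.7 ± 14.6), Mfap5 (29.0 ± 2.56), Ly6a (11.1 ± 1.71), Pdgfra (7.18 ± 2.23), Cd55 (5.57 ± 1.97), Clec3b (2.90 ± 0.32), Mfap4 (2.45 ± 0.529), Dpp4 (1.55 ± 0.0866) and Pi16 (0.331 ± 0.0747). Neighbours in this order whose ranges overlapped were Ly6a and Pdgfra, Pdgfra and Cd55, and Clec3b and Mfap4. Gsn lay at percentile 99.5 and Dpt at percentile 97.2 of 14077 tested genes by WT level per kb, Pdgfra at 63.2 and Pi16 at 2.44. In HOM libraries Gsn was at 546 ± 38.0 CPM per kb and Dpt at 21.4 ± 13.2, and the ranges of Dpt and Mfap5 (14.7 ± 3.47), of Mfap5 and Pdgfra (13.2 ± 3.43), and of Pdgfra and Ly6a (13.2 ± 3.22) overlapped. Dpt thus stood at percentile 87.8 and Pdgfra at 78.9 there. Union exon lengths include alternative ends, so levels of genes with long annotated models, such as Pi16, are understated.

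The make-up of the marker signal differed between genotypes. Gsn gave 86.2 to 88.0% of the summed CPM of the 10 markers in HOM and 77.4 to 79.4% in WT libraries. The other 9 markers summed to 270, 276 and 219 CPM in the HOM and 350, 390 and 406 CPM in the WT replicates. Within those 9, Pdgfra made up 63.1, 37.4 and 56.5% in the HOM and 18.5, 13.9 and 23.9% in the WT replicates, while Dpt made up 8.83, 22.9 and 10.8% against 35.9, 44.7 and 34.1%. Pdgfra reads per Dpt read came to 7.15, 1.63 and 5.22 in the HOM and 0.516, 0.311 and 0.701 in the WT replicates, so the ratio was higher in each HOM library. These shares are descriptions of the libraries and follow from the single-gene differences given above.

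**Figure D3:**
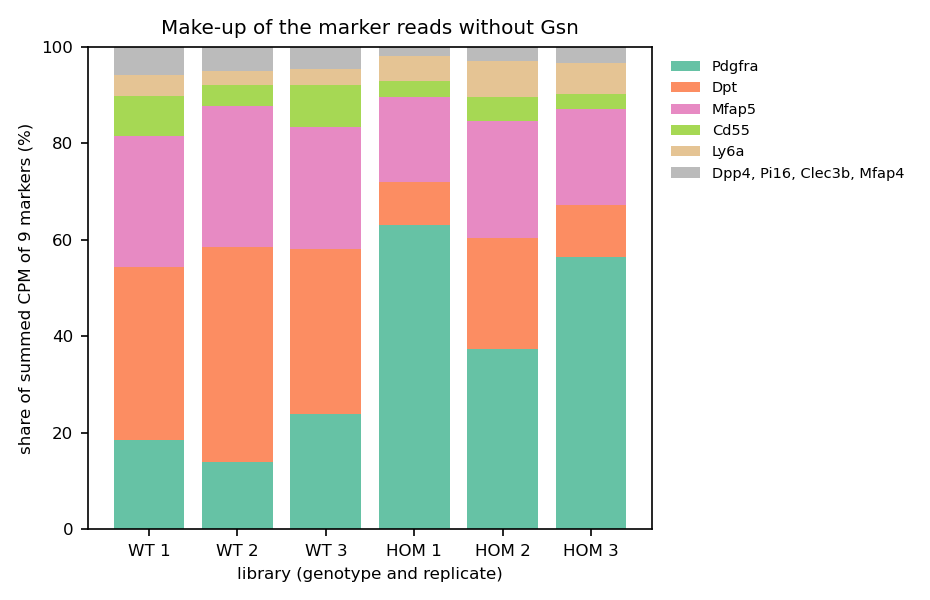
Share of the summed CPM of 9 markers (vertical axis, percent, Gsn left out) taken by each gene in each library (horizontal axis). Pdgfra takes 37.4 to 63.1% in HOM and 13.9 to 23.9% in WT libraries.

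Promoter windows from RefSeq on GRCm38.p6, running from 250 bases before to 50 after a gene's start, were matched for 6 of the 10 markers by symbol (Pdgfra, Dpt, Gsn, Pi16, Dpp4 and Cd55). A stretch of 100 bases, from 120 to 21 before the start, is printed for 3 markers that fell and for Pdgfra, which rose, to show what these promoters share and where they differ. Bases that match 1 of the 6 searched motifs on either strand are in capitals, and the strands are plus for Dpt and Pdgfra and minus for Dpp4 and Cd55.
Dpt, chr1:164796543-164796642: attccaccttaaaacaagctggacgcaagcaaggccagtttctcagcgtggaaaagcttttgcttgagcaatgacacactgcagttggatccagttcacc
Dpp4, chr2:62412252-62412351: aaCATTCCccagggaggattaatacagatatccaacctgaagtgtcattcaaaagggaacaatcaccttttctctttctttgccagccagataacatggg
Cd55, chr1:130462765-130462864: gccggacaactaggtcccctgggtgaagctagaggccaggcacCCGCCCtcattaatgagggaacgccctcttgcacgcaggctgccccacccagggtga
Pdgfra, chr5:75152131-75152230: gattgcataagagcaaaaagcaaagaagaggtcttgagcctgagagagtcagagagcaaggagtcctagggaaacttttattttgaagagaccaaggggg

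The motifs were the TATA box TATAAA, the GC box of SP and KLF factors GGGCGG, the NF-Y box CCAAT, the element of TEAD factors GGAATG, the element of AP-1 factors TGANTCA and the myogenic E-box CAGCTG, none of which overlap each other in the printed stretches. Over the whole 300-base windows, CAGCTG was found for 4 of the 6 markers (Dpt, Gsn, Pi16 and Cd55) and in 16.3% of all 32817 windows, with Gsn counted over its 3 windows. In Dpt it begins 200 bases before the start and again 6 bases after it, next to a TATAAA that begins 12 bases after. GGGCGG was found for Gsn and Cd55 (35.6% of all windows) and CCAAT for Gsn and Pi16 (37.4%). TATAAA was found for Dpt and Dpp4 (13.6%) and GGAATG for Dpp4 (14.7%). The GGAATG of Dpp4 is in the capitals above, while its TATAAA begins 227 bases before the start, outside the printed stretch. TGANTCA was in none of the 6 markers' windows and in 7.81% of all windows. Pdgfra's window held none of the 6 motifs. CpG pairs numbered 4 in Dpt and Dpp4, 5 in Pdgfra, 3 in Pi16, 12 in Cd55 and 20, 2 and 16 in the 3 Gsn windows, against a median of 7 over all windows. These matches describe letters and do not show binding.

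Other genes linked to fibroblasts and progenitors were read from lists, here and further below. Which cells of the sorted fraction made these transcripts was not tested. The counts of these lists are to be set beside the 11.5% lower and 9.67% higher over all genes tested. Among 15 tested genes of universal, or adventitial, fibroblasts other than the 10 markers, 8 fell and 1 rose, with a median log2 difference of -0.63. Cd34, a sialomucin that satellite and endothelial cells also carry, was at 49.6 ± 30.0 CPM in HOM and 156 ± 8.59 CPM in WT libraries (log2 difference -1.64, SE 0.33, adjusted p = 0.00749). Creb5, a transcription factor, fell by 0.89 on the log2 scale (adjusted p = 0.00185) and Sema3c, a secreted semaphorin, by 0.96 (adjusted p = 0.00642). Anxa3, an annexin, rose from 66.0 ± 6.51 to 99.8 ± 5.93 CPM (log2 difference 0.60, adjusted p = 0.00646). The number of lower members was 4 without HOM replicate 1 and 5 without HOM replicate 3 or WT replicate 3, and 12 without HOM replicate 2.

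Among 25 genes of muscle interstitial fibroblasts, 14 fell and 1, the chemokine gene Cxcl14, rose, with a median log2 difference of -0.79. Thy1, a surface glycoprotein of fibroblasts, fell from 23.8 ± 2 to 3.23 ± 1.67 CPM (log2 difference -2.84, SE 0.29, adjusted p = 0.00058). Smoc2, a secreted calcium-binding matrix protein, was at 59.7 ± 10.1 against 152 ± 6.66 CPM (log2 difference -1.35, SE 0.13, adjusted p = 0.00057). Islr, a secreted protein with leucine-rich repeats, fell by 1.74 on the log2 scale and Fbln1, the matrix protein fibulin-1, by 1.14. The broadly made fibroblast proteoglycan Dcn did not pass the test (log2 difference -0.36, adjusted p = 0.10). Cxcl14 was not called without HOM replicate 3, WT replicate 1 or WT replicate 2.

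Markers of other cell types were counted in the same way, and their part in the marker differences was not tested. Their counts are to be read beside the 11.5% lower and 9.67% higher over all genes tested, and several lists are short. Of the tenocyte markers 3 of 7 tested fell, 1 of which, Kera, passed the filter on low counts through its WT libraries alone, with sums of 84.9, 194 and 70.7 CPM in the HOM and 190, 213 and 217 CPM in the WT replicates. The satellite cell markers fell for 8 of 12, erythroid markers for 3 of 6 (sums of 215 to 878 against 889 to 1579 CPM) and muscle fibre markers for 2 of 8 (41.5 to 69.8 against 66.6 to 107 CPM). Of the Schwann cell markers 4 of 10 fell and 3 rose, and of the 10 pericyte and smooth muscle markers 1 fell and 3 rose. All 5 tested adipocyte markers rose (433 to 1025 against 183 to 294 CPM), but 3 of them, Adipoq, Cidec and Cfd, passed the filter through their HOM libraries alone, which fixes their direction. A rise was also called for 1 of 8 tested leukocyte markers (34.6 to 55.7 against 35.7 to 88.4 CPM). Of 10 endothelial markers 0 were called by edgeR and 0 by the DESeq2 Wald test, and 1 had an unadjusted p under 0.05 (473 to 808 against 535 to 820 CPM). No marker of these lists was at 0 in every library.

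Single libraries changed these marker counts. Without HOM replicate 2, 10 satellite cell, 6 tenocyte, 6 erythroid, 6 Schwann cell, 5 endothelial, 2 pericyte and 1 leukocyte markers were lower and 1 muscle fibre marker was higher. Leaving out any other single library gave 2 to 5 lower satellite cell markers, 1 lower tenocyte marker and 2 lower Schwann cell markers. Erythroid markers were lower for 1 without HOM replicate 3, and for 0 without HOM replicate 1, WT replicate 2 or WT replicate 3. The lower pericyte marker was lost without HOM replicate 1 or 3 or WT replicate 1 or 2, and 1 of the 2 lower muscle fibre markers without HOM replicate 1 or WT replicate 1 or 2. Adipocyte markers were higher for 3 without HOM replicate 3, and 2 leukocyte markers were lower without WT replicate 2.

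**Figure D4:**
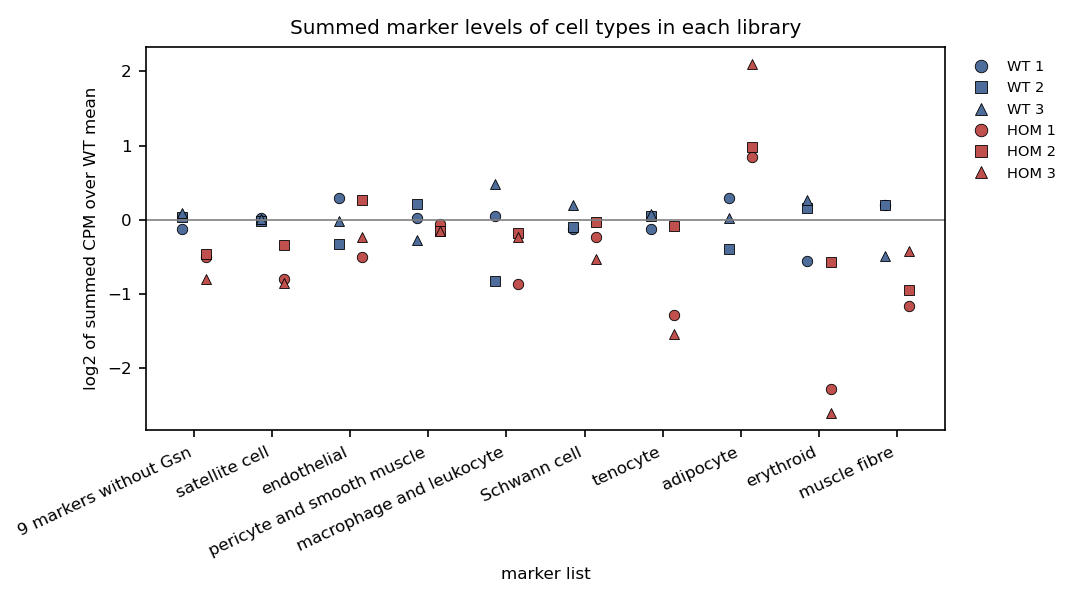
Summed CPM of each marker list in each library, as log2 of the value over the WT mean (vertical axis); the first column is the 9 markers without Gsn, and colours and symbols mark genotype and replicate. HOM replicate 2 (red square) lies nearer to WT than the other HOM libraries for the satellite cell, tenocyte and erythroid lists, and all HOM libraries are higher for the adipocyte list.

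In the PDGF system, Pdgfra is 1 of a pair of receptor tyrosine kinases and binds PDGF-AA and PDGF-CC, while Pdgfrb marks pericytes. Of the 6 genes listed, 2 fell and 2 rose, or 66.7% in either direction against 21.1% of all genes tested. Pdgfrb rose from 320 ± 33.2 to 650 ± 131 CPM (log2 difference 1.02, SE 0.17, adjusted p = 0.00362), and the ligand gene Pdgfc from 6.27 ± 1.74 to 15.4 ± 2.29 CPM (log2 difference 1.29, SE 0.23, adjusted p = 0.00515). Pdgfd, whose product binds Pdgfrb, fell by 1.16 on the log2 scale (adjusted p = 0.0125) and Pdgfrl, a receptor-like gene, by 2.02 (adjusted p = 0.00359). The ratio of Pdgfrb to Pdgfra reads was 4.44 to 5.57 in HOM and 2.92 to 6.05 in WT libraries, and the ranges overlapped. Both receptor genes were thus higher. The pericyte and smooth muscle list, which holds Pdgfrb, went both ways beside them. Abcc9 and Kcnj8, subunits of a pericyte potassium channel, were also called higher (log2 differences 1.58 and 1.38), Myh11, a smooth muscle myosin, was called lower (-0.58, adjusted p = 0.0493), and the other 6 were not called.

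The adipogenic programme, which these progenitors can enter, was higher for 8 of 13 tested genes, with a median log2 difference of 0.83. Adipoq and Cidec entered the test through their HOM libraries alone, and without them 6 of 11 were higher, with a median of 0.60. Adipoq, Cidec and Fabp4 are also in the adipocyte list above, so the lists are not separate observations. Pparg, the nuclear receptor that drives adipocyte differentiation, was at 21.2, 11.3 and 29.1 CPM in the HOM and 8.42, 4.44 and 5.82 CPM in the WT replicates (log2 difference 1.69, SE 0.34, adjusted p = 0.00813). Klf15, a transcription factor of metabolic and glucocorticoid responses that is not confined to fat, rose from 17.3 ± 1.29 to 91.3 ± 15.3 CPM (log2 difference 2.40, adjusted p = 0.00021). Adipoq, the adipocyte hormone adiponectin, had 410 reads in the HOM and 8 in the WT group. Cidec, a lipid droplet protein, had 728 and 1, a ratio of 686 (exact 95% counting interval 123 to 27114). Both were highest in HOM replicate 3, at 37.1 CPM for Adipoq and 64.5 CPM for Cidec. Zfp423, a factor of preadipocyte commitment, was at 4.18, 4.97 and 6.79 against 4.73, 6.02 and 6.2 CPM (log2 difference -0.08, adjusted p = 0.839). The number of higher members was 5 without HOM replicate 3 or WT replicate 3.

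The list of fibrogenic genes, which leaves out the collagens, was split. Of 12 tested myofibroblast and fibrosis genes, 3 rose and 1 fell, or 33.3% in either direction against 21.1% of all genes tested. The other 8 were not called, and the median log2 difference of the list was -0.05. Lox, which crosslinks collagen and elastin, rose by 0.82 on the log2 scale (adjusted p = 0.00354), Timp1, a metalloproteinase inhibitor, by 1.32 (adjusted p = 0.00574) and Ccn2, a matricellular growth factor, by 0.61 (adjusted p = 0.011). Postn, the matricellular protein periostin, was at 68.0, 210 and 71.5 CPM in the HOM and 412, 422 and 401 CPM in the WT replicates (log2 difference -1.82, SE 0.37, adjusted p = 0.00813). Its HOM values showed the same high replicate 2 as Dpt. The collagen genes Col1a1, Col1a2 and Col3a1, counted in the interstitial fibroblast list instead, were called lower. Their log2 differences were -1.58, -1.18 and -2.47 (adjusted p = 0.00616, 0.00821 and 0.00458).

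Of 10 genes listed as secreted factors of progenitors, 3 fell and 0 rose, or 30% in either direction against 21.1% of all genes tested. Their median log2 difference was -0.49, and action on satellite cells was not tested. Igf1 fell from 64.8 ± 6.59 to 14.9 ± 6.93 CPM (log2 difference -2.11, SE 0.29, adjusted p = 0.00152). Ccn4, or WISP1, fell by 0.90 on the log2 scale (adjusted p = 0.00362). Bmp3, a BMP family ligand, had an adjusted p of 0.0431 that passed without HOM replicate 2 and in no other fit with 1 library left out. Without HOM replicate 2, 1 factor was called higher. Il6, the cytokine interleukin 6, was at 148, 54.9 and 150 against 130, 166 and 168 CPM and did not pass (adjusted p = 0.378).

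Of 15 tested relatives of the markers by sequence or family, 2 fell and 2 rose, or 26.7% in either direction, near the 21.1% of all genes tested. Pi15, the closest listed relative of Pi16, was at 56.9 ± 8.64 CPM per kb in WT libraries, where Pi16 was at 0.331, and fell from 394 ± 59.8 to 161 ± 70.9 CPM (log2 difference -1.29, SE 0.26, adjusted p = 0.00806). Mfap3l, a membrane protein named like the microfibril proteins, fell by 0.65 on the log2 scale, and that call was lost without HOM replicate 1, HOM replicate 3 or WT replicate 3. The gelsolin relatives Scin and Flii rose by 1.40 and 0.32 on the log2 scale. Scin had 76 reads in the HOM and 27 in the WT group. With 1 WT library over the filter cut, Scin needed its HOM libraries to pass. The call of Scin was lost without any 1 library other than HOM replicate 3, and that of Flii without any 1 library. The Cd55 copy Cd55b, which shares 384 of the 4801 50-base words of Cd55 transcripts, had 0 to 3 reads in any library, against 53 to 280 for Cd55.

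**Figure D5:**
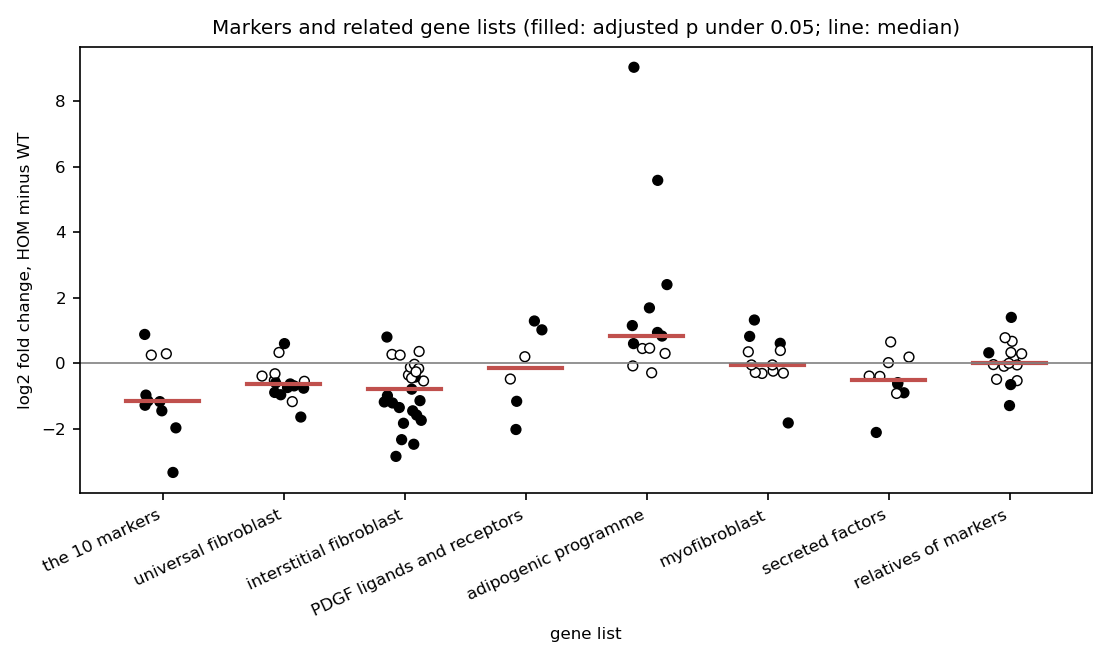
Log2 fold change (vertical axis, HOM minus WT) of every tested gene of the 10 markers and the 7 related lists (horizontal axis); filled points passed an adjusted p of 0.05 and red lines are list medians. Medians run from -1.16 for the markers to 0.83 for the adipogenic programme. Among the markers, Mfap4 and Pi16 passed the filter on low counts through WT libraries alone. Adipoq and Cidec of the adipogenic programme did so through HOM libraries alone.

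Across the 6 libraries, the 7 lower markers correlated with the mean profile of the 10 standardised markers at Pearson's r of 0.82 to 1.0, Pdgfra at -0.79, Gsn at -0.85 and Ly6a at -0.07. Each marker is itself part of that profile, and the genotype difference enters every value. Among 11099 other genes of at least 5 CPM on average, those most like the profile were Ptprd, L3mbtl3, Igsf10, Pi15, Sorl1, Ankrd10, Prrg3 and Zfp516, with r of 0.9951 to 0.9979 over 6 libraries. Ptprd, a receptor tyrosine phosphatase, was at 20.1, 42.0 and 20.5 CPM in the HOM and 82.2, 62.6 and 79.4 CPM in the WT replicates. Igsf10, an immunoglobulin superfamily gene, stood at 6.27, 14.6 and 7.31 against 36.5, 27.3 and 39.0 CPM. Both had their highest HOM value in replicate 2 and their lowest WT value in replicate 2. Of the 8 genes, L3mbtl3 did not pass the test (adjusted p = 0.0616) except without HOM replicate 2 (adjusted p = 0.0263). The other 7 fell, and the calls of Ankrd10 and Zfp516 were lost without replicate 1 or 3 of either genotype.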

How the data were processed

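Total RNA libraries of 3 homozygous and 3 wild-type samples were analysed. Each library's file, as deposited, holds raw counts of reads for Ensembl genes. Per the submitters' processing notes, the tools were Trimmomatic 0.32, STAR 2.5.2b and HTSeq 0.6.1, on mm10. What each did, whether counting used strand, and the annotation release were not given in the sources used here. Summary lines, 45 to 49.8% of the reads in a file, were left out. GENCODE M21 on GRCm38 supplied symbols and exon lengths for 38861 of 39059 identifiers. Pdgfra, Pi16, Dpp4, Cd55 and Mfap4 overlap genes on the opposite strand. No 2 libraries of a genotype agreed within sampling noise (chi-square of 8.35 to 22.5 per gene).

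Tests used edgeR 4.0.16 in R 4.3.3 on these counts: filterByExpr (minimum count 10, minimum total 15), TMM factors, the quasi-likelihood test without covariates, and Benjamini-Hochberg adjustment over 14099 genes at 0.05. SEs were derived from the log2 difference and the F statistic. DESeq2 1.42.0 was an alternative, beside those of the closing section. The markers, lists and tests were chosen with earlier results of these data known. Named genes are the 10 markers, up to 4 called genes of smallest p per related list (or the 2 most abundant), and the 8 genes most like the markers' mean profile. Cxcl14, Dcn, Zfp423, Il6, Ly6c1, Cd55b, Abcc9, Kcnj8, Myh11, Kera and Cfd were chosen after their values were seen. So were Acta2, Fabp4, Retn, Plin1, Lep, Cthrc1, Wnt2, Col1a1, Col1a2 and Col3a1. Intervals and floors cover counting error only, since no molecular identifiers are named.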

Additional observations from a re-analysis of the deposited data

How the results depend on the processing

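All 10 markers kept their sign under the alternatives run, except Ly6a, at -0.09 without HOM replicate 2 and WT replicate 2 together. Dpt, Mfap5, Mfap4, Cd55 and Dpp4 were called lower under each. Of these, Mfap4 passed the filter of the main fit through its WT libraries alone, so its direction there was fixed in advance. The number of lower markers was 5 with the DESeq2 Wald test, with the replicate block and with the Y-linked covariate, and 6 with library totals only and with thinned counts. It was 5 in each fit with 1 library left out, with a median log2 difference of -1.23 to -1.06. The number of higher markers was 0 with Y-linked reads as a covariate, and 0 to 1 with 1 library left out.

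The number of all genes called, 2980, was 1933 with the Y-linked covariate and 1576 to 4002 with 1 library left out. Leaving out HOM replicate 1 gave 1587, HOM replicate 3 1576, WT replicate 1 1602 and WT replicate 2 1818. Without both second replicates 2 myofibroblast genes were lower, and with no filter on low counts 5 secreted factors were. Relatives of the markers were higher for 1 with library totals only, DESeq2, thinned counts or without both second replicates, and for 0 with the replicate block or the Y-linked covariate. With 1 library left out, lower genes numbered 4 to 12 in the universal fibroblast list and 1 to 3 among relatives. Higher genes numbered 0 to 1 in the interstitial fibroblast list, 5 to 10 in the adipogenic programme, 0 to 1 among secreted factors and 0 to 1 among relatives. The cause of these changes was not tested.

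The replicate numbers are shared by the genotypes but not stated to pair animals. Same-numbered libraries' deviations from their group means correlated at -0.0359, 0.0224 and -0.0962, and 0 of 3 pairs passed 0.1. With the replicate block 2437 genes were called, and Clec3b (adjusted p = 0.0522) and Pi16 (adjusted p = 0.0814) were not. Depth limits Pi16, Clec3b and Mfap4, which had 70, 96 and 117 reads over the 6 libraries.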

Other observations

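Some genes of the fibroblast and fat lists were too low to test. Retn, the adipocyte hormone resistin, had 12, 12 and 62 reads in the HOM and 0, 0 and 1 in the WT replicates. Plin1, a coat protein of lipid droplets, had 1, 9 and 7 reads against 1, 1 and 2. Lep had 0 reads in the HOM and 1 in the WT group. Cthrc1, a secreted protein of activated fibroblasts, had 0, 16 and 4 reads against 11, 10 and 5, and Wnt2, a ligand gene of adventitial fibroblasts, had at most 3 reads in a library.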
